A study of Mus musculus with 16 samples.

Results

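The comparison described here is the effect of losing Meis1 and Meis2 in the heart, averaged over both chambers of each embryo. Hearts of 8 mouse embryos were taken at embryonic day E15.5, and each gave 1 atrial and 1 ventricular library, so all 16 libraries of the series entered the comparison. The double knockout (dKO) embryos carried floxed alleles of both genes, Meis1flox/flox and Meis2flox/flox, together with 1 copy of an aMHC-driven Cre transgene (aMHC tg/wt). The control embryos carried the same floxed alleles on both genes and no Cre (aMHC +/+). The series' design text speaks of a deletion that was constitutive or inducible, without saying which for these embryos, and the sample labels do not call the Cre inducible. The presence of Cre cannot be told apart from the deletion. For every gene the log2(CPM + 1) of the atrium and of the ventricle were averaged within an embryo, and the 4 dKO embryo means were compared with the 4 control embryo means. Of 16118 genes in the table, 13950 reached a mean of 1 CPM over all 16 libraries and were tested. CPM are counts scaled for each library, and how this was done is not given in the sources used here. The embryo is the replicate in the main tests, with n = 4 dKO and 4 control embryos. The alternatives in edgeR and DESeq2 took the 16 libraries as replicates instead. Values below are given in the order of embryos 1 to 4 of each genotype, converted back to CPM from the embryo's mean on the log2 scale, and log2 differences are dKO minus control on the log2(CPM + 1) scale, which understates the change of genes near the pseudocount.

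MEIS1 and MEIS2 are homeodomain transcription factors of the TALE class. They bind DNA alone or as complexes with PBX proteins, their partners in the same class, and in vertebrate embryos they act in limb, blood, eye and heart development. The aMHC promoter drives Cre in cardiomyocytes, the contracting cells of the heart. Fibroblasts, endothelium, epicardium and smooth muscle keep both genes in this model, and they are part of every library because whole chambers were sequenced. In such bulk samples fewer cells of a type and less RNA per cell cannot be told apart.

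Libraries held 7.88 to 22.98 megareads, and the dKO ventricles were the shallowest group (12.3 ± 2.998 megareads against 18.4 ± 3.18 megareads in control ventricles, SD). A count of 3 reads corresponded to 0.128 to 0.364 CPM. Library identity fitted the labels of chamber: Myl3, a ventricular myosin light chain, stood at 2614 ± 207 CPM in dKO ventricles against 2623 ± 54.3 CPM in control ventricles, and at 39.4 ± 13.2 CPM in dKO atria against 118 ± 21.1 CPM in control atria (SD). Transcripts of the Y-linked genes Ddx3y, Eif2s3y, Kdm5d and Uty were present in all 8 embryos. The first number of the sample titles takes 3 values, called sets A, B and C here. Set A is dKO embryo 1, set B is dKO embryos 2 and 3 and control embryos 1 and 2, and set C is dKO embryo 4 and control embryos 3 and 4. What the number stands for was not found in the labels.

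Averaged over both chambers, 996 genes (7.14% of those tested) differed between dKO and control embryos at an adjusted p under 0.05, in limma's moderated test with Benjamini-Hochberg adjustment over all 13950 genes. Of these, 484 (3.47%) were higher in dKO embryos and 512 (3.67%) were lower. Most changes were small. The median size among called genes was 0.34 on the log2 scale, 719 of the 996 differed by less than 0.5, and 40 differed by at least 2-fold, 18 of them higher and 22 lower. The 4 dKO embryos did not overlap the 4 control embryos in 961 of the 996 called genes and in 14.0% of all genes tested. In each of the 8 fits that left out 1 embryo, 576 of the 996 genes were called in the same direction, 280 higher and 296 lower. Among the 4 embryos of set B alone, 559 genes were called, and 483 of these were among the 996.

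Averaging brings together chambers that did not respond to the same degree. Tested alone, the atria gave 1042 called genes (7.47%) and the ventricles 279 (2.0%). The 996 averaged calls comprised 129 genes also called in both chambers alone, 580 called in atria only, 98 called in ventricles only and 189 called in neither. Both chambers moved in the same direction in 949 of the 996 genes. The effect was larger in atria for 796 genes and larger in ventricles for 200, and the median size was 0.45 in atria against 0.22 in ventricles. Over all genes tested the median size was 0.108 in atria against 0.083 in ventricles. With 580 of the 996 called in atria only, the split partly follows from which genes were called. These chamber values are parts of the average, so their likeness to it is no separate evidence. A difference in dKO effect between ventricles and atria was called for 198 genes (1.42%), 121 of them among the 996, and with the embryo as a replicate block over all 16 libraries it was called for 368. For the other 875 averaged calls no difference between chambers passed the test, which does not show that both chambers responded alike.

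**Figure D1:**
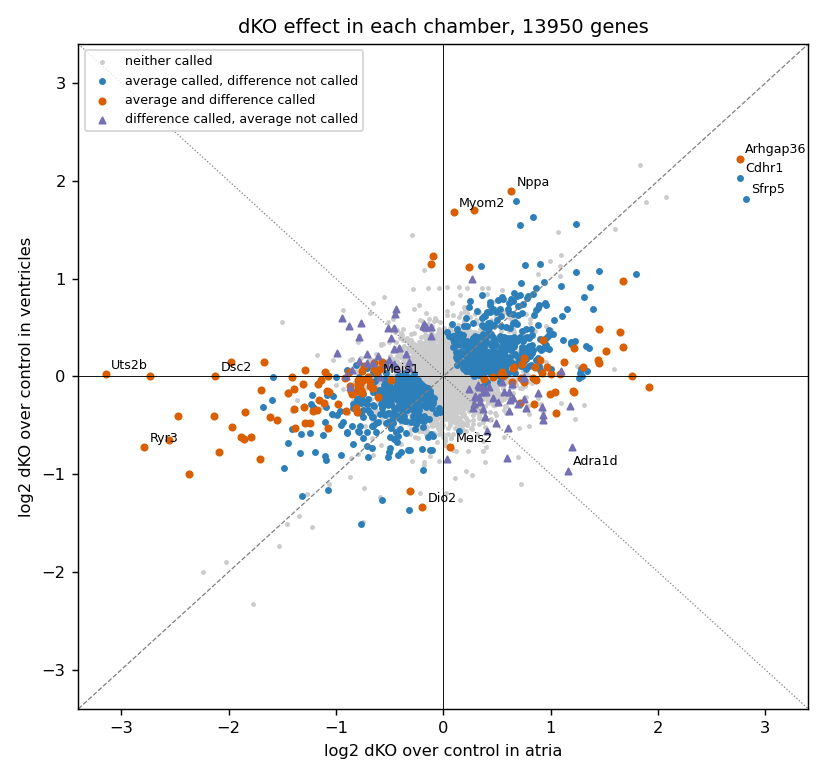
Log2 difference of dKO over control in atria (horizontal axis) and in ventricles (vertical axis) for each of the 13950 genes tested, coloured by whether the average of both chambers and the difference between chambers were called. Called averages lie mostly in the quadrants of shared sign (949 of 996), nearer to the horizontal axis than to the vertical one for the 796 genes with the larger effect in atria; the dashed line marks equal and the dotted line opposite effects.

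The targeted genes themselves fell only partly, and each in a different chamber. Meis1 (GRCm38 chromosome 11, bases 18879817 to 19018985) had 33.5, 32.4, 30.4 and 33.9 CPM in the dKO embryos, against 42.2, 39.6, 38.4 and 43.4 CPM in the control embryos. All 4 dKO embryos lay below all 4 controls, at 80.2% of the control level on the CPM + 1 scale (log2 difference -0.32, two-sided exact permutation p = 0.0286, the smallest that 70 arrangements can give). Its fall was -0.62 in atria and -0.019 in ventricles, where dKO and control libraries overlapped. Meis2 (GRCm38 chromosome 2, bases 115863064 to 116065839) had 26.1, 22.7, 24.01 and 26.6 CPM in the dKO embryos, against 30.2, 31.4, 31.04 and 33.4 CPM in the control embryos. Again no dKO embryo reached the lowest control (log2 difference -0.33, exact permutation p = 0.0286), but here atria differed by 0.063 and ventricles by -0.73. The opposed chamber patterns passed the test of the difference for Meis2 (adjusted p = 0.025) and not for Meis1 (adjusted p = 0.068), while with the embryo as replicate block both did (adjusted p = 0.00057 and 0.0046). The values count reads over whole genes, so any transcripts of a deleted allele that lack the floxed part would still be counted. Cells outside the Cre lineage are in every library as well. The part of either in these levels was not tested.

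**Figure D2:**
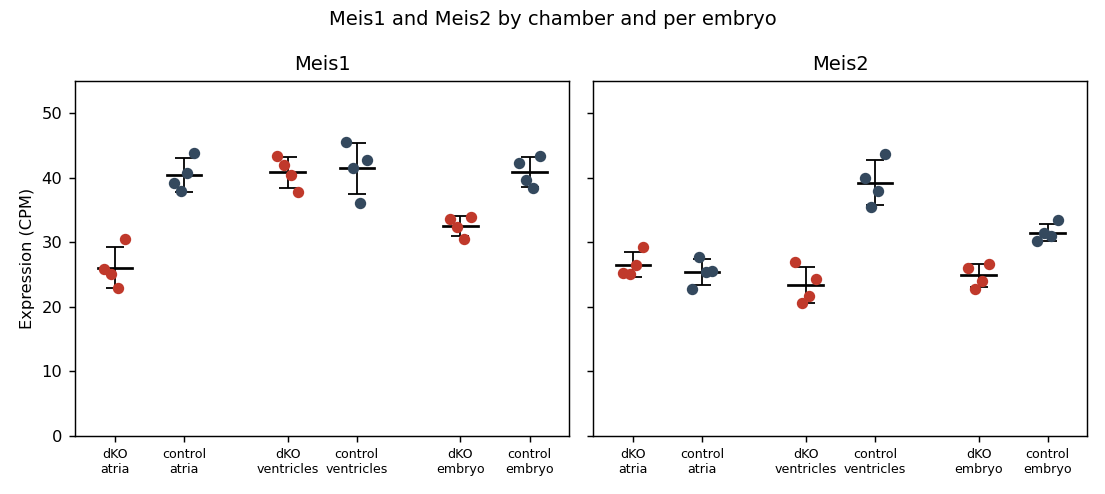
Expression of Meis1 (left) and Meis2 (right) in CPM on a linear axis, for dKO (red) and control (dark) libraries of each chamber and for the embryo means of both chambers; points are the 4 embryos, horizontal bars the mean and whiskers the SD. Meis1 separates dKO from control in atria and Meis2 in ventricles, and the embryo means separate for both genes.

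Sequences upstream of 3 genes are shown because these genes stand for the averaged effect in both directions: Arhgap36 had the largest rise, Nppa is the natriuretic peptide gene described below, and Lrrc10, a fall, held more copies of the core motif than any other of the 30 largest changes with an entry. Each line gives the 250 bases before an annotated start, 5′ to 3′, in the RefSeq set for GRCm38.p6. A start whose window holds the core motif was chosen. Capitals mark the hexamer TGACAG, the core bound by MEIS proteins, or its reverse complement CTGTCA.
Arhgap36 (chrX:49463695-49463944, plus strand): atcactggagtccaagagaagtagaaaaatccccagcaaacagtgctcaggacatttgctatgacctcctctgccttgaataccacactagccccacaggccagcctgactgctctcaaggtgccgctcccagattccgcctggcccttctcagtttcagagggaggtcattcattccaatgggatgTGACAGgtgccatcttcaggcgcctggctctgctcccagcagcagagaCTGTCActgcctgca
Nppa (chr4:148000472-148000721, plus strand): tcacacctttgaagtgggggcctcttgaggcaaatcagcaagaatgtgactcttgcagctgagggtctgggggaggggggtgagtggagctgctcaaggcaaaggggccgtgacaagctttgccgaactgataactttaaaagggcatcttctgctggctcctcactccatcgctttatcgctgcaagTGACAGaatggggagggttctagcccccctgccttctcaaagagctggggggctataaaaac
Lrrc10 (chr10:117045091-117045340, plus strand): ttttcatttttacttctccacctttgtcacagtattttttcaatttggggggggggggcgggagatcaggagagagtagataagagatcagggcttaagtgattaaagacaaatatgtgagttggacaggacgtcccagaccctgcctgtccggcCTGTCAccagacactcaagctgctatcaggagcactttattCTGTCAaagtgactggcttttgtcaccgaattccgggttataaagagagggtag
The hexamer, searched on both strands in windows that run 250 bases before to 50 after each start, occurred in 19.2% of all 32851 windows in the set. By gene it occurred in 22.9% of 354 genes higher in dKO embryos, 21.9% of 393 lower genes and 19.6% of all 10344 tested genes with an entry. A PBX-MEIS octamer, TGATTGAC, occurred in 1 of the 354 higher genes (0.282%), in 6 of the 393 lower genes (1.53%) and in 1.09% of all 10344. Of the 30 largest changes, 24 had an entry and 10 held the hexamer. The Arhgap36 matches start 63 and 15 bases before the start, the Nppa match 62 bases before, and those of Lrrc10 at 95 and 54 bases before and, beyond the printed stretch, 38 bases after. Arhgap36 has another start in the set, whose window (chrX:49470200-49470499) held no hexamer. These matches describe letters in a window and are not binding sites.

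The largest rises were a mixed group of secreted, membrane and enzyme genes. These and the largest falls were taken among called genes without overlap between genotypes, so their separation is set by that choice. Arhgap36, an X-linked gene whose product inhibits protein kinase A and promotes Hedgehog signalling, had 21.6, 17.1, 20.8 and 13.2 CPM in the dKO embryos, against 5.09, 4.61, 1.603 and 0.415 CPM in the control embryos (log2 difference 2.49 ± 0.39 (SE), adjusted p = 0.0025). No control embryo reached the dKO range, yet controls 1 and 2, both of set B, lay about level with each other and above controls 3 and 4. Within set B its difference was 1.76 (adjusted p = 0.00029). Cdhr1, a cadherin-family membrane protein best known from photoreceptors, had 11.8, 12.9, 12.4 and 7.67 CPM in the dKO embryos, against 1.98, 1.21, 1.05 and 0.963 CPM in the control embryos (log2 difference 2.399 ± 0.17 (SE), adjusted p = 1.1e-05). Its groups were well apart, with dKO embryo 4 below the other dKO embryos. Sfrp5 (GRCm38 chromosome 19, bases 42197971 to 42202252), a secreted binder of Wnt ligands, had 26.6, 28.7, 26.3 and 28.1 CPM in the dKO embryos, against 4.44, 5.204, 4.48 and 4.68 CPM in the control embryos (log2 difference 2.32 ± 0.068 (SE), adjusted p = 1.4e-08). The embryos of either genotype hardly varied for Sfrp5, which was called in both chambers alone (2.82 in atria and 1.82 in ventricles).

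Npy1r, a receptor for neuropeptide Y, had 15.9, 12.4, 12.99 and 9.39 CPM in the dKO embryos, against 4.45, 4.57, 3.65 and 3.86 CPM in the control embryos (log2 difference 1.397 ± 0.13 (SE), adjusted p = 7.9e-05). Clu, the secreted chaperone clusterin, had 157, 139, 173 and 149 CPM in the dKO embryos, against 72.1, 53.9, 69.4 and 50.6 CPM in the control embryos (log2 difference 1.33 ± 0.11 (SE), adjusted p = 2.8e-05). Lingo1, a leucine-rich membrane protein of neurons, had 19.7, 22.7, 20.2 and 17.8 CPM in the dKO embryos, against 7.83, 7.65, 7.15 and 8.38 CPM in the control embryos (log2 difference 1.27 ± 0.081 (SE), adjusted p = 4.5e-06). Each of these 3 genes was called in either chamber alone. Alox5, which encodes the lipoxygenase of leukotriene synthesis, differed by 1.42, with 1.79 in atria and 1.04 in ventricles. It moved opposite to Alox8, another lipoxygenase gene, which differed by -1.27 with -1.32 in atria and -1.23 in ventricles. The remaining large rises, Tmeff2, Fgf12, Paqr9, Syndig1, Gad1, Ripor2 and Scn7a, spanned log2 differences of 1.02 to 1.23. Gad1, which makes the transmitter GABA, had a low level also where it rose (4.98 ± 0.343 CPM in dKO atria against 0.936 ± 0.399 CPM in control atria, SD), and in control ventricles it lay under the count of 3 reads.

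**Figure D3:**
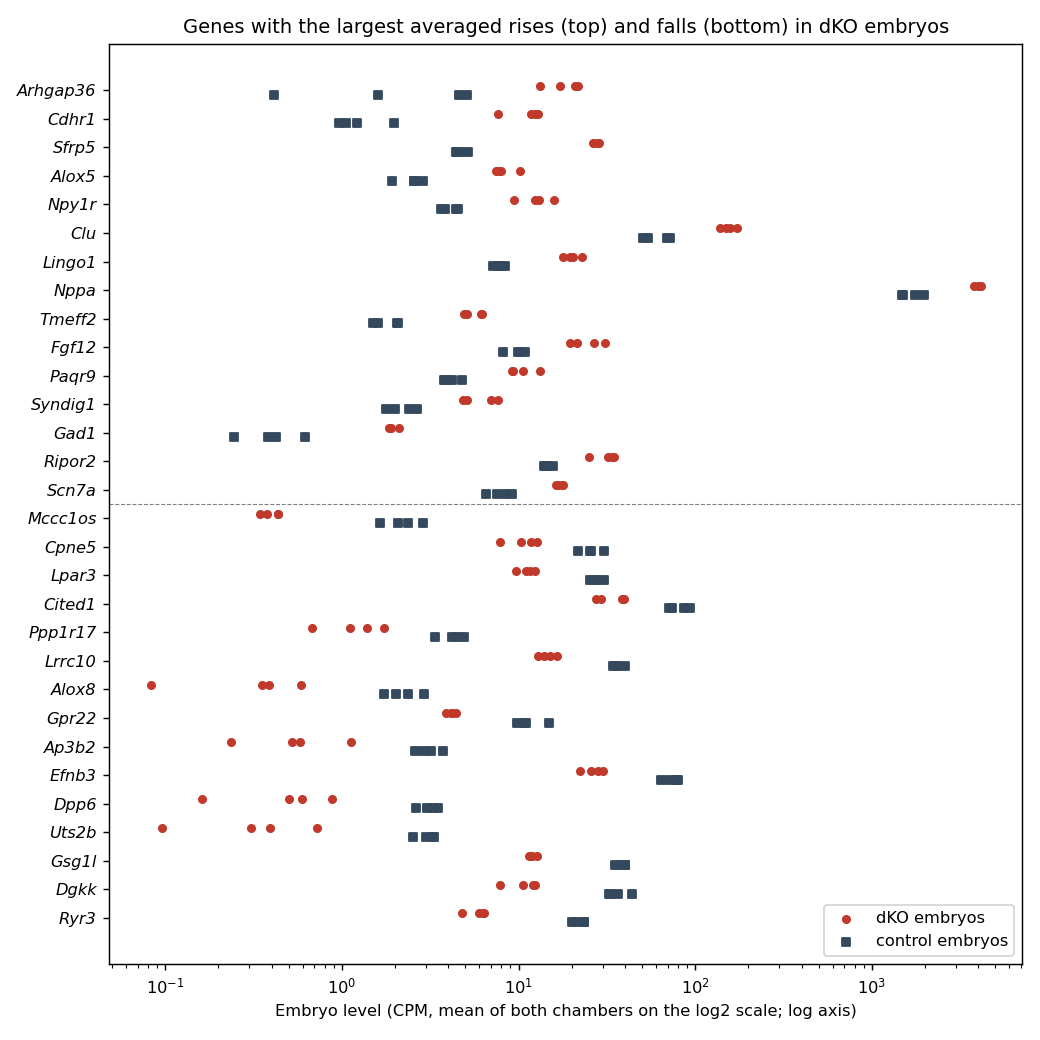
Embryo level in CPM (log axis) of the 15 largest rises (top) and 15 largest falls (bottom) among called genes with an ordinary symbol and no overlap between genotypes; red circles are the 4 dKO embryos and dark squares the 4 control embryos. Spread within a genotype is widest for Arhgap36 in controls and for falls whose dKO level is under 1 CPM, such as Alox8, Dpp6 and Uts2b.

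The largest falls were a mixed group, most of them deeper in atria. Ryr3 (GRCm38 chromosome 2, bases 112631355 to 113217096), a ryanodine receptor that releases calcium from internal stores, had 5.99, 4.81, 6.41 and 6.32 CPM in the dKO embryos, against 23.6, 20.1, 23.6 and 21.5 CPM in the control embryos (log2 difference -1.76 ± 0.091 (SE), adjusted p = 1.5e-06). The 4 dKO embryos kept 29.6% of the control level on the CPM + 1 scale, and the fall was -2.78 in atria and -0.73 in ventricles (adjusted p of the difference = 0.0030). Exons of Ryr3 overlap Aven on the other strand, and whether counting used strand was not found in the labels. Dgkk, a kinase that turns diacylglycerol into phosphatidic acid, had 10.6, 7.85, 12.1 and 12.4 CPM in the dKO embryos, against 32.8, 32.7, 43.7 and 36.5 CPM in the control embryos (log2 difference -1.68 ± 0.13 (SE), adjusted p = 1.8e-05). Gsg1l, whose product is an accessory protein of AMPA-type glutamate receptors, had 11.8, 11.5, 12.8 and 11.8 CPM in the dKO embryos, against 39.98, 38.5, 35.3 and 39.8 CPM in the control embryos (log2 difference -1.605 ± 0.058 (SE), adjusted p = 6.7e-08). Lpar3, a receptor for lysophosphatidic acid, had 9.68, 11.01, 12.3 and 11.6 CPM in the dKO embryos, against 25.5, 27.9, 26.7 and 30.7 CPM in the control embryos (log2 difference -1.24 ± 0.0799 (SE), adjusted p = 4.7e-06). Gpr22, an orphan receptor, had 4.21, 3.897, 4.44 and 4.15 CPM in the dKO embryos, against 9.81, 10.98, 14.8 and 10.9 CPM in the control embryos (log2 difference -1.27 ± 0.11 (SE), adjusted p = 4.3e-05). All 5 of these genes were called in both chambers alone, and the difference between chambers was called for each.

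For a few falls the average rests on 1 chamber. Uts2b, a precursor of a urotensin-related peptide, had 0.8198 ± 0.607 CPM in dKO atria against 14.6 ± 3.05 CPM in control atria (SD), whereas in ventricles both genotypes lay under the count of 3 reads, so no ventricular fold is given. Its averaged log2 difference of -1.56 passed in limma (adjusted p = 0.00010) but not in edgeR on the recovered reads (adjusted p = 0.36) or in DESeq2 (adjusted p = 0.15). Ap3b2, a subunit of the neuronal adaptor complex AP-3, had 1.296 ± 1.12 CPM in dKO atria against 13.4 ± 2.85 CPM in control atria (SD), and its ventricular means, 0.188 CPM for dKO against 0.181 CPM for controls, were too near the count of 3 reads for a comparison. Dsc2, a desmosomal cadherin, is the clearest such case at a well measured level, with 8.89 ± 1.05 CPM in dKO atria against 42.2 ± 5.54 CPM in control atria and 36.3 ± 1.69 CPM in dKO ventricles against 36.3 ± 1.71 CPM in control ventricles (SD). Its averaged value of -1.06 (adjusted p = 4.1e-06) therefore describes neither chamber, and the difference between chambers was 2.12 ± 0.104 (SE, adjusted p = 0.00012).

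Gene groups were described by how many of their members passed the test, beside the shares of 3.47% higher and 3.67% lower among all genes tested and a median of -0.0093 over all genes. Of 147 called members of the lists, 96 were called in each of the 8 fits that left out 1 embryo, and for most named genes that were not, the number of such fits that called them is given. Genes of calcium handling mostly fell where they passed: 2 of 24 tested members rose and 7 fell, with a median of -0.102. Besides Ryr3 the falls included Cacna1c, the pore subunit of the L-type calcium channel, with 105, 103, 103 and 94.6 CPM in the dKO embryos, against 142, 139, 145 and 149 CPM in the control embryos (log2 difference -0.499 ± 0.042 (SE), adjusted p = 3.3e-05). Camk2a, a calcium-dependent kinase, differed by -0.41 (adjusted p = 0.00043). Atp2a2, the pump that refills the calcium store, differed by -0.28 (called in 4 of 8 fits with 1 embryo left out, adjusted p up to 0.078). Its inhibitor Pln differed by -0.26 (called in 3 of 8 fits with 1 embryo left out, adjusted p up to 0.11). Sln, another inhibitor of that pump, rose by 0.45 (called in 4 of 8 fits with 1 embryo left out, adjusted p up to 0.10). Ryr2, the main release channel of cardiomyocytes, differed by -0.34 (adjusted p = 0.020), a call lost without control embryo 1 (-0.31, adjusted p = 0.064) and without control embryo 2 (-0.34, adjusted p = 0.0505). With 1 embryo left out at a time the list gave 0 to 3 higher and 5 to 7 lower. No rise was called without control embryo 3 or 4 or dKO embryo 1 or 3, or among the embryos of set B, and 1 was without control embryo 1.

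Ion channel genes were called on both the potassium and the sodium channel list. Of the potassium channel list, 1 of 19 tested members rose and 4 fell (median -0.084), and with single embryos left out it gave 1 higher in each fit and 4 to 5 lower. Kcnq1, the pore of the slow delayed rectifier, had 13.8, 13.1, 15.03 and 15.2 CPM in the dKO embryos, against 23.6, 28.8, 22.9 and 26.4 CPM in the control embryos (log2 difference -0.79 ± 0.079 (SE), adjusted p = 0.00012), although its exons overlap the non-coding Kcnq1ot1 on the other strand. Dpp6, an auxiliary subunit of Kv4 channels, had 0.162, 0.502, 0.598 and 0.876 CPM in the dKO embryos, against 2.63, 3.51, 3.02 and 3.27 CPM in the control embryos (log2 difference -1.44 ± 0.16 (SE), adjusted p = 0.00022), and its ventricular fall of -0.401 did not pass alone (adjusted p = 0.34). Its ventricular means, 0.221 CPM for dKO against 0.613 CPM for controls, were under the added 1 CPM, which shrinks that fall. Abcc9, the sulfonylurea receptor of ATP-sensitive channels, differed by -0.69 and Kcnh2, the rapid delayed rectifier, by -0.26, while Kcna4, a transient outward channel, rose by 0.46. On the sodium channel list, 3 of 11 tested members rose and 0 fell (median 0.16). Scn7a, an atypical sodium channel, had 16.8, 16.3, 17.5 and 17.8 CPM in the dKO embryos, against 9.1996, 8.45, 7.58 and 6.57 CPM in the control embryos (log2 difference 1.02 ± 0.091 (SE), adjusted p = 4.6e-05). Fgf12, an intracellular modulator of sodium channels, had 26.8, 19.6, 21.5 and 30.7 CPM in the dKO embryos, against 9.95, 10.3, 8.18 and 10.9 CPM in the control embryos (log2 difference 1.23 ± 0.13 (SE), adjusted p = 0.00016). Scn7a and Fgf12 were both called in either chamber alone.

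Genes of the contractile apparatus were split. On the sarcomere list, 4 of 30 tested members rose and 8 fell (median -0.085). Lmod3, which nucleates thin filaments, had 15.8, 17.6, 17.3 and 15.6 CPM in the dKO embryos, against 27.4, 29.8, 26.9 and 31.9 CPM in the control embryos (log2 difference -0.77 ± 0.067 (SE), adjusted p = 3.9e-05), with nearly equal falls in both chambers (-0.84 in atria and -0.696 in ventricles). Csrp3, the Z-disc protein MLP, differed by -0.25 (adjusted p = 0.0074), Nebl by -0.37 and Tnnt1, the slow skeletal troponin T, by -0.995. Myom2, an M-band protein, rose in the average (0.89, adjusted p = 0.00035) from ventricles, where it had 251 ± 21.3 CPM in dKO ventricles against 78.7 ± 15.7 CPM in control ventricles, against 253 ± 31.3 CPM in dKO atria against 236 ± 28.2 CPM in control atria (SD). Myl3 differed by -0.795 (adjusted p = 0.00016), but its level differs widely between chambers, and averaging the chambers before the log gave -0.0495 (adjusted p = 0.68). With 1 embryo left out at a time the list gave 1 to 4 higher and 6 to 9 lower. The rises fell to 1 without control embryo 1, control embryo 2 or dKO embryo 2 and to 2 without dKO embryo 3. Of 14 genes common to all cardiomyocytes, 6 fell and none rose (median -0.13): Ldb3 (-0.199), Ryr2, Actn2 (-0.24, not called without dKO embryo 2, adjusted p = 0.056), Myom1 (-0.32, called in 5 of 8 fits with 1 embryo left out, adjusted p up to 0.072), Atp2a2 and Pln. That count was 3 without control embryo 2 or dKO embryo 2, 4 without control embryo 3, control embryo 4 or dKO embryo 3, and 1 among the embryos of set B.

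Genes of cell contacts changed in both directions. Gja1, the gap junction protein connexin 43, had 162, 146, 171 and 153 CPM in the dKO embryos, against 293, 281, 273 and 306 CPM in the control embryos (log2 difference -0.86 ± 0.054 (SE), adjusted p = 4.1e-06). Gja5, connexin 40 of atria and conduction tissue, had 261, 221, 234 and 240.3 CPM in the dKO embryos, against 155, 165, 177 and 182 CPM in the control embryos (log2 difference 0.49 ± 0.0605 (SE), adjusted p = 0.00053). The genotypes did not overlap for either gene, and the changes were opposite in sign in each chamber, -1.39 in atria and -0.33 in ventricles for Gja1 and 0.31 in atria and 0.67 in ventricles for Gja5 (the atrial value of Gja5 did not pass alone, adjusted p = 0.070, and its exons overlap Gpr89 on the other strand). Of the 18 gap junction and desmosome genes, 4 rose and 4 fell, among the falls Pkp2, a desmosomal plaque protein (-0.28), with a median of -0.024, of the other sign under 2 alternatives. The rises were 2 without control embryo 1, 2 or 3 or dKO embryo 2. On the list of pacemaker and conduction genes, 2 of 18 tested members rose and 2 fell. The rises there numbered 1 without control embryo 1, 3 or 4 or dKO embryo 2 or 4, and 3 without control embryo 2; Gjd3, a connexin of conduction tissue, rose by 0.49 (called in 3 of 8 fits with 1 embryo left out, adjusted p up to 0.10). The fall of Cpne5, a calcium-dependent membrane-binding copine, was the largest there, with 10.3, 11.8, 12.7 and 7.82 CPM in the dKO embryos, against 25.4, 30.3, 21.7 and 25.6 CPM in the control embryos (log2 difference -1.21 ± 0.13 (SE), adjusted p = 0.00024).

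Natriuretic peptide and vasoactive genes changed in both directions: 5 of 19 tested members rose and 5 fell (median -0.021, of the other sign under 6 alternatives). Nppa (GRCm38 chromosome 4, bases 148000722 to 148002079), the precursor of atrial natriuretic peptide, had 4078, 3773, 4144 and 4004 CPM in the dKO embryos, against 1961, 1491, 1745 and 1497 CPM in the control embryos (log2 difference 1.27 ± 0.089 (SE), adjusted p = 9.7e-06). The 4 dKO embryos lay close together and far above the controls, with 5920 ± 704 CPM in dKO atria against 3827 ± 594 CPM in control atria and 2722 ± 264 CPM in dKO ventricles against 744 ± 182 CPM in control ventricles (SD), and the rise was larger in ventricles (difference 1.26, adjusted p = 0.043). Corin, the protease that cleaves the precursor of atrial natriuretic peptide, had 83.1, 73.99, 74.7 and 71.9 CPM in the dKO embryos, against 141, 152, 130.4 and 141 CPM in the control embryos (log2 difference -0.88 ± 0.055 (SE), adjusted p = 4.1e-06). It was lower in all dKO embryos and called in both chambers (-1.29 in atria and -0.48 in ventricles). Furin, a general proprotein convertase, rose by 0.41 (adjusted p = 0.00061), and Nppb, the gene of the B-type peptide, by 0.63 (adjusted p = 0.013). Ednra, a receptor for endothelin, had 49.6, 47.8, 49.1 and 47.1 CPM in the dKO embryos, against 72.7, 72.9, 72.1 and 75.2 CPM in the control embryos (log2 difference -0.59 ± 0.036 (SE), adjusted p = 4.1e-06). Edn1, the ligand of Ednra, rose by 0.45 (called in 2 of 8 fits with 1 embryo left out, adjusted p up to 0.090). Agtr1a, an angiotensin II receptor, rose by 0.59, while Adm, adrenomedullin, fell by 0.42 (called in 3 of 8 fits with 1 embryo left out, adjusted p up to 0.092). Without control embryo 3 or control embryo 4 the falls on this list numbered 3.

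Among receptors of the autonomic nerves, Chrm2 and Adra1b moved apart. Chrm2, the muscarinic receptor through which acetylcholine slows the heart, had 89.4, 79.3, 80.6 and 69.9 CPM in the dKO embryos, against 38.9, 41.96, 41.99 and 40.1 CPM in the control embryos (log2 difference 0.95 ± 0.065 (SE), adjusted p = 7.9e-06). Adra1b, an alpha-1 adrenergic receptor, had 2.83, 3.35, 3.29 and 4.61 CPM in the dKO embryos, against 7.45, 7.21, 7.62 and 8.94 CPM in the control embryos (log2 difference -0.97 ± 0.12 (SE), adjusted p = 0.00059). Neither gene had overlapping genotypes, and both were called in each chamber (0.76 in atria and 1.14 in ventricles for Chrm2, -1.41 in atria and -0.54 in ventricles for Adra1b). Adcy5, the adenylyl cyclase of heart muscle, fell by 0.38 and Rgs6, a regulator of muscarinic signalling, rose by 0.23 (adjusted p = 0.00077 and 0.023, the call of Rgs6 being made in 3 of 8 fits with 1 embryo left out). These 4 were the called genes among 11 tested (median 0.054). Another alpha-1 receptor, Adra1d, was not called in the average and is described below.

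Signalling by Wnt, BMP, Notch and ephrins was described from its ligands to its targets. Of the Wnt list, 4 of 27 tested members rose and 4 fell (median -0.11, but 0.0199 with a filter at 5 CPM). Among ligands Wnt2 fell by 0.58 (called in 4 of 8 fits with 1 embryo left out, adjusted p up to 0.088) and Wnt5a by 0.39. Among secreted modulators Sfrp5 rose, as above, and Sfrp1 had 409, 409, 416 and 446 CPM in the dKO embryos, against 277, 272, 279 and 246 CPM in the control embryos (log2 difference 0.64 ± 0.049 (SE), adjusted p = 1.6e-05), whereas Dkk3 fell by 0.64. The receptor Fzd1 had 119, 109.9, 112 and 109 CPM in the dKO embryos, against 61.5, 62.7, 66.6 and 67.6 CPM in the control embryos (log2 difference 0.79 ± 0.044 (SE), adjusted p = 2.4e-06), with all dKO embryos above all controls and closely matched effects of 0.78 in atria and 0.81 in ventricles. Lef1, a nuclear effector, fell by 0.49 (called in 3 of 8 fits with 1 embryo left out, adjusted p up to 0.094). Without control embryo 2 the Wnt falls numbered 2. Of the BMP and TGF-beta list, 2 of 29 tested members rose and 4 fell, and leaving out control embryo 1 or 2 or any single dKO embryo left 1 rise. The less stable calls were Inhba, an activin subunit (0.33, called in 1 of 8 fits with 1 embryo left out, adjusted p up to 0.12), and Fst, the activin antagonist follistatin (-0.48, called in 1 of 8 fits with 1 embryo left out, adjusted p up to 0.11). Bmp10, a ligand made by cardiomyocytes, had 85.05, 85.01, 90.8 and 57.7 CPM in the dKO embryos, against 146, 127, 117 and 118 CPM in the control embryos (log2 difference -0.68 ± 0.12 (SE), adjusted p = 0.0066), with dKO embryo 4 lower than the rest, Bmp2 rose by 0.46 and Bmp5 fell by 0.42. On the Notch list none of 18 rose and Hey1, Notch2 and Dll1 fell (-0.37, -0.202 and -0.34). Notch2 was called in 4 and Dll1 in 1 of the 8 fits with 1 embryo left out. The count dropped to 1 without control embryo 1, 2 or 4 or dKO embryo 3, and to none among the embryos of set B.

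Efnb3, a membrane-bound ephrin ligand, had 22.3, 25.6, 28.2 and 30.3 CPM in the dKO embryos, against 71.8, 77.7, 64.4 and 79.6 CPM in the control embryos (log2 difference -1.44 ± 0.091 (SE), adjusted p = 4.3e-06) and was called in both chambers (-2.09 in atria and -0.78 in ventricles). It led an axon guidance list, on which 6 of 31 tested members rose and 5 fell, where Sema5a (0.51), Sema3a (0.44) and Efnb1 (0.27) were among the rises and Ntn1 (-0.53), Sema6d (-0.45) and Slit3 (-0.31, not called without control embryo 1 or 2, adjusted p = 0.066 and 0.068) among the falls. Leaving out 1 embryo at a time gave 4 to 8 higher and 3 to 6 lower, with 3 falls without control embryo 1 or 2 and 4 rises without control embryo 2. The fall of Ntn1, which encodes netrin 1, was -1.103 in atria and 0.041 in ventricles (difference adjusted p = 0.034).

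Transcription factors of the heart changed in both directions. Of 24 tested, Tbx2 and Tbx5 rose and 4 fell, among them Hey1, Mef2d and Gata5 (called in 2 of 8 fits with 1 embryo left out, adjusted p up to 0.10) (median -0.034). Tbx2, a repressor that marks slow-conducting myocardium, had 22.2, 24.9, 24.3 and 25.5 CPM in the dKO embryos, against 14.8, 12.3, 14.6 and 12.7 CPM in the control embryos (log2 difference 0.79 ± 0.073 (SE), adjusted p = 6.5e-05) and was called in both chambers. Tbx5, a driver of atrial and conduction programmes, had 94.2, 89.6, 96.3 and 94.5 CPM in the dKO embryos, against 79.9, 76.6, 77.1 and 79.8 CPM in the control embryos (log2 difference 0.25 ± 0.036 (SE), adjusted p = 0.0016), which averaging before the log reduced to 0.16 (adjusted p = 0.077). Lrrc10, a leucine-rich protein of cardiomyocytes, had 16.5, 15.1, 12.9 and 13.9 CPM in the dKO embryos, against 36.02, 35.7, 34.5 and 40.1 CPM in the control embryos (log2 difference -1.27 ± 0.075 (SE), adjusted p = 3.5e-06). Cited1, a transcriptional coregulator of ventricular myocardium, had 38.5, 27.6, 29.4 and 39.4 CPM in the dKO embryos, against 73.8, 70.9, 93.2 and 86.3 CPM in the control embryos (log2 difference -1.25 ± 0.12 (SE), adjusted p = 8.4e-05). Both fell further in atria (-2.14 and -1.85) than in ventricles (-0.405 and -0.64). Hmga1, a chromatin architectural protein, had 19.4, 18.5, 19.3 and 44.2 CPM in the dKO embryos, against 54.7, 54.2, 48.6 and 52.1 CPM in the control embryos (log2 difference -1.12 ± 0.22 (SE), adjusted p = 0.0097). Here dKO embryo 4 was near the control range and the other 3 dKO embryos far below it, and Hmga1 has near-identical copies in the genome among which reads can be split.

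Markers of chamber identity did not move as blocks. Of the atrial myocyte list, 7 of 18 tested members rose and 4 fell (median 0.055), the rises including Nppa, Fgf12, Gja5, Pam and Tbx5 and the falls Smpx, Dkk3 and Bmp10. Leaving out single embryos gave 6 to 7 higher and 3 to 4 lower. Of the ventricular myocyte list, 2 of 14 tested members rose and 5 fell (median -0.25), the falls being Lrrc10, Gja1, Cited1, Myl3 and Pln. Pln was counted on the list of genes common to all cardiomyocytes too. The rises there were Cited4 (0.29, called in 4 of 8 fits with 1 embryo left out, adjusted p up to 0.061) and Mpped2 (0.28, called in 1 of 8 fits with 1 embryo left out, adjusted p up to 0.10).

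**Figure D4:**
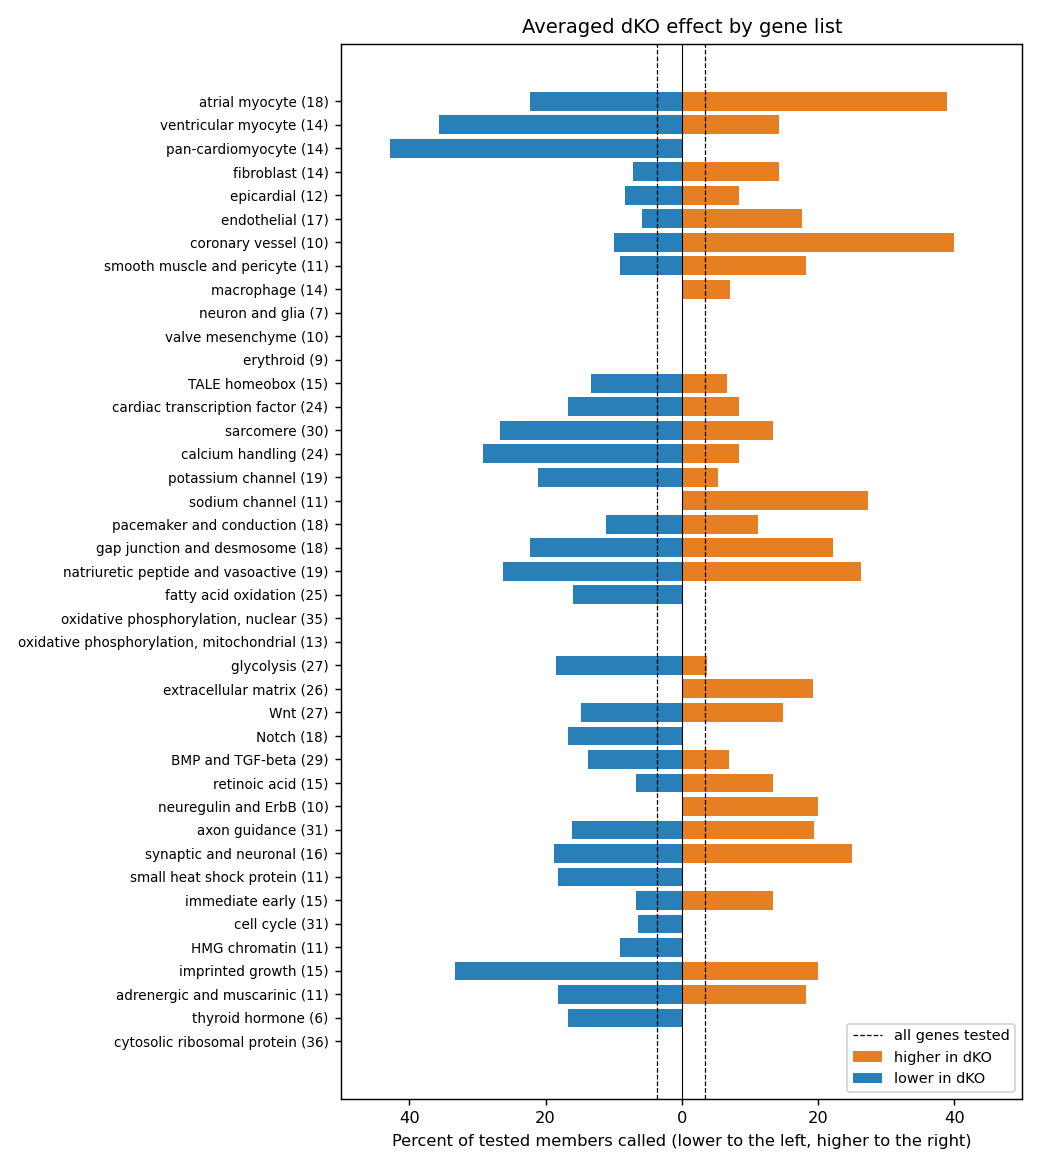
Percent of the tested members of each gene list (number tested in brackets) that were called in the averaged comparison, lower in dKO embryos to the left and higher to the right; dashed lines give 3.67% and 3.47% of all genes tested. The list of genes common to cardiomyocytes has calls to the left only, extracellular matrix and sodium channel lists to the right only, and lists such as ribosomal proteins and oxidative phosphorylation none.

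Genes of energy metabolism were called on some lists and not on others. Of 27 genes of glucose use, 5 fell and 1 rose (median -0.083). Gyg, glycogenin, the primer of glycogen synthesis, had 246, 235, 257 and 259 CPM in the dKO embryos, against 448, 436, 467 and 460.3 CPM in the control embryos (log2 difference -0.86 ± 0.042 (SE), adjusted p = 1.0e-06). Slc2a1, a glucose transporter, had 124, 131, 159.8 and 136 CPM in the dKO embryos, against 236, 205, 211 and 207 CPM in the control embryos (log2 difference -0.64 ± 0.073 (SE), adjusted p = 0.00030). Slc16a1, a transporter of lactate and pyruvate, had 84.8, 87.5, 92.2 and 81.6 CPM in the dKO embryos, against 130.2, 129, 122 and 121 CPM in the control embryos (log2 difference -0.53 ± 0.044 (SE), adjusted p = 3.1e-05). All 3 separated the genotypes and fell in both chambers alone. Hk1 (hexokinase) and Gys1 (glycogen synthase) fell by 0.37 and 0.20, and Slc2a3, another glucose transporter, rose by 0.35, a call lost without dKO embryo 3 (0.32, adjusted p = 0.052). Of 25 fatty acid oxidation genes none rose and 4 fell, led by Eci1 (-0.31) and Fabp3 (-0.41), and the median was -0.14. None of 35 nuclear or 13 mitochondrial genes of oxidative phosphorylation was called (medians -0.103 and -0.046), though leaving out control embryo 3 called 3 nuclear genes lower. Among them Atp5a1, a subunit of ATP synthase, differed by -0.12 (adjusted p = 0.21) and passed in edgeR with libraries as replicates (adjusted p = 0.048). None of 36 cytosolic ribosomal protein genes was called either (median -0.053).

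Genes typical of cells outside the Cre lineage passed the test in some lists. Of the extracellular matrix list, 5 of 26 tested members rose and 0 fell (median 0.15), among them Sparc with 1463, 1448, 1564 and 1625 CPM in the dKO embryos, against 1245, 1258, 1315 and 1212 CPM in the control embryos (log2 difference 0.28 ± 0.054 (SE), adjusted p = 0.0092), Fbn1 (0.22) and Col5a1 (0.26). The count was 3 without control embryo 1, 2 or 4 or dKO embryo 2. Of the fibroblast markers, 2 of 14 tested members rose and 1 fell (median 0.21), and their summed level ran from 6394 to 7906 CPM in the dKO embryos and 5606 to 6854 CPM in the control embryos, ranges that overlap. Fibroblast rises numbered 4 without control embryo 3, and the fall was not called without control embryo 1 or 3 or dKO embryo 1, 2 or 3. Of the smooth muscle and pericyte markers, 2 of 11 tested members rose and 1 fell, with a summed level of 1859 to 2191 CPM in the dKO embryos and 1588 to 1740 CPM in the control embryos. Without Acta2, its most abundant member, the sum was 815 to 936 CPM in the dKO embryos and 835 to 887 CPM in the control embryos, ranges that overlap. The rises on that list numbered 4 without control embryo 3 or dKO embryo 2, and the falls 2 without dKO embryo 4. Acta2, smooth muscle actin, which immature cardiomyocytes also express, had 1007, 1069, 1231 and 1191 CPM in the dKO embryos, against 822, 723, 806 and 744 CPM in the control embryos (log2 difference 0.54 ± 0.0697 (SE), adjusted p = 0.00076), 0.904 in atria and 0.17 in ventricles. Cspg4, a pericyte proteoglycan, rose by 0.53 in the average, but by 0.13 (adjusted p = 0.26) when chambers were averaged before the log. The part of these cell types in the matrix values was not tested.

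Of the endothelial markers, 3 of 17 tested members rose and 1 fell (median 0.016, but -0.0359 with the set as a covariate and -0.0293 without dKO embryo 1), with summed levels of 1558 to 1843 CPM in the dKO embryos and 1611 to 1668 CPM in the control embryos. The rises included Cd34 (0.27, called in 5 of 8 fits with 1 embryo left out, adjusted p up to 0.059) and Emcn (0.24, called in 1 of 8 fits with 1 embryo left out, adjusted p up to 0.13). They numbered 1 without control embryo 1 or 2 or dKO embryo 1, and the fall was not called without control embryo 1 or 2 or dKO embryo 3. Among the embryos of set B no endothelial marker was called. Of the coronary vessel markers, 4 of 10 tested members rose and 1 fell, and no rise was called without control embryo 1 or without control embryo 2, while 2 were without control embryo 3 or 4 or dKO embryo 2, 3 or 4. Single members were called among macrophage (C1qb, 0.45) and epicardial markers (Aldh1a2, 0.24, called in 3 of 8 fits with 1 embryo left out, adjusted p up to 0.089, and Igfbp5, -0.29, called in 5 of 8 fits with 1 embryo left out, adjusted p up to 0.075). No member was called among 10 valve mesenchyme, 9 erythroid and 7 neuron and glia markers. Summed erythroid levels were 3055 to 4915 CPM in the dKO embryos and 2433 to 4311 CPM in the control embryos, and those of neuron and glia were 10.8 to 22.7 CPM in the dKO embryos and 12.2 to 30.7 CPM in the control embryos, with Prph at 0 reads in at least 1 library. The called genes with neuronal names, among them Gsg1l, Gad1, Lingo1 and Syndig1, changed beside neuronal markers at low levels, and the part of nerve cells in them was not tested.

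Averaging also brought out genes that neither chamber passed alone. There were 189, 81 higher and 108 lower, all with the same sign in both chambers, with a median size of 0.25. The shared sign follows largely from the choice, as opposite effects cancel in an average. Csrp3 had 555, 593, 607 and 609 CPM in the dKO embryos, against 697, 688, 677 and 739 CPM in the control embryos (log2 difference -0.25 ± 0.046 (SE), adjusted p = 0.0074), with -0.29 in atria and -0.1998 in ventricles. Suclg2, a subunit of succinate-CoA ligase in the citric acid cycle, had 118, 107, 109.7 and 104 CPM in the dKO embryos, against 134, 136, 127 and 124 CPM in the control embryos (log2 difference -0.25 ± 0.047 (SE), adjusted p = 0.0086). Etv5, an ETS factor downstream of growth factor receptors, had 23.9, 24.6, 22.2 and 20.5 CPM in the dKO embryos, against 19.2, 17.6, 16.2 and 16.5 CPM in the control embryos (log2 difference 0.37 ± 0.072 (SE), adjusted p = 0.0087). Dok5, a docking protein of receptor kinases, had 6.29, 6.97, 6.14 and 7.44 CPM in the dKO embryos, against 4.24, 4.23, 4.33 and 5.12 CPM in the control embryos (log2 difference 0.49 ± 0.094 (SE), adjusted p = 0.0082). Each of these 4 separated the genotypes with no overlap, as did 961 of the 996 called genes, so this follows largely from the call. The largest of their chamber effects was 0.55. Nrg1, the ligand neuregulin 1, rose by 0.43 (called in 3 of 8 fits with 1 embryo left out, adjusted p up to 0.070). Acss1, a mitochondrial acetyl-CoA synthetase, also belongs here. Within set B the differences of Acss1, Etv5 and Dok5 were -0.49, 0.33 and 0.53 and did not pass (adjusted p = 0.1, 0.077 and 0.075).

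Conversely the average hides genes whose chambers had effects of opposite sign by value. Of the 198 genes called for the difference between chambers, 77 were not called in the average, and 73 of these had opposite signs in atria and ventricles. Those signs follow largely from the choice of a called difference without a called average. Of the 198, only 5 were called in each chamber alone with opposite signs. Adra1d, another alpha-1 adrenergic receptor, had 2.36, 2.61, 1.79 and 2.18 CPM in the dKO embryos, against 1.78, 2.72, 2.04 and 1.62 CPM in the control embryos (average 0.097, adjusted p = 0.76). The embryo means overlap entirely, yet it had 4.31 ± 0.885 CPM in dKO atria against 1.38 ± 0.395 CPM in control atria and 0.979 ± 0.155 CPM in dKO ventricles against 3.001 ± 1.37 CPM in control ventricles (SD), a difference of -2.12 ± 0.25 (SE, adjusted p = 0.0056). Tmem163, a zinc transporter, had 35.4 ± 1.09 CPM in dKO atria against 68.9 ± 2.27 CPM in control atria and 5.88 ± 0.992 CPM in dKO ventricles against 3.57 ± 0.808 CPM in control ventricles (SD), with an average of -0.17 (adjusted p = 0.27). That average passed with a pseudocount of 5 (-0.26, adjusted p = 0.014) and when chambers were averaged first (-0.79). Plppr1, a lipid phosphatase-related membrane protein, and Ankrd63 were higher in dKO atria and lower in dKO ventricles by value (0.93 in atria and -0.45 in ventricles and 0.59 in atria and -0.83 in ventricles), as did Abca4 and Col2a1. Bcat1, Klf14, Csrnp3 and Slc9a2 had the reverse pattern by value, with averages between -0.38 and -0.11. The average of Bcat1 passed in limma when chambers were averaged first (-0.65, adjusted p = 0.025). That of Plppr1 passed under 2 alternatives, edgeR among them (0.29, adjusted p = 0.046). Leaving out 1 embryo at a time called 76 to 199 genes for the difference: 87, 83, 88 and 76 without control embryos 1 to 4, and 88 without dKO embryo 2 or without dKO embryo 3.

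Of 15 imprinted genes with growth roles, 5 fell and 3 rose (median -0.022, of the other sign under 3 alternatives). Grb10, an adaptor that restrains insulin and growth factor receptors, had 895, 935, 933 and 947 CPM in the dKO embryos, against 1144, 1113, 1148 and 1099 CPM in the control embryos (log2 difference -0.28 ± 0.042 (SE), adjusted p = 0.0020), with near equal falls of -0.29 in atria and -0.27 in ventricles. Zim1, a zinc finger gene, had 76.7, 55.5, 66.02 and 60.3 CPM in the dKO embryos, against 112, 98.1, 127 and 101 CPM in the control embryos (log2 difference -0.76 ± 0.0997 (SE), adjusted p = 0.00084), and Peg3 differed by -0.302. The 3 rises numbered 1 without control embryo 2, 3 or 4 or without dKO embryo 1. Dio2, which activates thyroid hormone, fell by 0.77, with -0.1998 in atria and -1.34 in ventricles (difference adjusted p = 0.015). Of 31 cell cycle genes Ccnb1 and Cdc20 fell by 0.19 and 0.20, and each was called in 1 of 8 fits with 1 embryo left out. Of the small heat shock protein list Hspb7 had 538, 550.4, 579 and 616 CPM in the dKO embryos, against 765, 802, 767 and 864 CPM in the control embryos (log2 difference -0.49 ± 0.056 (SE), adjusted p = 0.00032). Egr1, an immediate early gene, rose by 0.53 and Ier3, another, fell by 0.69 (adjusted p = 0.0049 and 0.00076). On the retinoic acid list Rxra, a retinoid receptor, fell by 0.26.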

How the data were processed

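RNA-seq was made from 16 libraries, an atrium and a ventricle of each of 8 embryos. Per the labels' protocols the outflow tract was cut away. Input was 20 ng, selection was for polyadenylated transcripts, and reads were single, 60 bases long. The submitters' processing notes list cutadapt for trimming, RSEM 1.3.1 for quantification and the build GRCm38. The deposited values are CPM of 16118 genes. How they were normalized and filtered, and whether strand was used, is not given in the sources used here. The lowest value of each library gave 1 step by which 100% of its values became a whole number of reads plus 0.5 (tolerance 0.001), so reads per library were recovered and used for depth and for the tests on counts.

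From the deposited CPM, log2(CPM + 1) was averaged over both chambers of an embryo. Only genes averaging 1 CPM or more entered limma 3.58.1 (R 4.3.3), a moderated two-sided test with trend, with Benjamini-Hochberg adjustment. The same test was applied to ventricle minus atrium within embryos and to each chamber alone, and Meis1 and Meis2 had an exact permutation test over the 8 embryos. The embryo pairs its chambers, by the labels (consensus correlation 0.108). Genotypes were not paired, since the numbers 1 to 4 are in accession order. The protocol names 4 litters with both genotypes, which the 3 title-number sets (A, B and C) do not identify. Embryos are separate animals. edgeR 4.0.16 and DESeq2 1.42.0 on recovered reads, other pseudocounts, filters and scalings, and fits without each embryo were alternatives. The tests were checked on simulated data.

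The comparison, gene lists and rules were chosen with earlier results of these data known. Named genes are Meis1 and Meis2; the 15 largest rises and falls without overlap; up to 3 called members of each of 41 lists by smallest adjusted p (for lists with none, 2 by level); the 8 strongest called in neither chamber alone; the 5 largest opposed differences each way; and the 6 strongest called everywhere. Other called list members were named after their values were seen. Gene coordinates are from GENCODE M21 and upstream sequences from RefSeq. Of 132 named genes, 16 have exons that overlap another gene. Some genes counted in lists are not reported here.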

Additional observations from a re-analysis of the deposited data

Results flagged for a closer look

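Of the 132 named genes, 43 were picked out because the dKO effect differed between chambers in the test of that difference (limma on the 8 within-embryo differences, adjusted p under 0.05). Values in brackets are the log2 effect in ventricles minus that in atria. Among genes lower in dKO embryos on average, a positive value means that the effect in atria was the more negative. Uts2b and Ap3b2 lay near or under the count of 3 reads in ventricles of both genotypes, where no fall could be measured, so their values describe atria and are no comparison of chambers. Such a value was found for Uts2b (3.16), Ap3b2 (2.74), Dsc2 (2.12), Dpp6 (2.07), Ryr3 (2.06), Gsg1l (1.91), Lrrc10 (1.73), Lpar3 (1.45), Dgkk (1.38), Efnb3 (1.31), Ppp1r17 (1.26), Cited1 (1.21), Mccc1os (1.17), Ntn1 (1.14), Gja1 (1.06), Bmp5 (0.92), Gpr22 (0.87), Abcc9 (0.84), Corin (0.82), Hspb7 (0.77), Gyg (0.76), Sema6d (0.63), Ednra (0.44) and Camk2a (0.41). The reverse, a more negative effect in ventricles, was found for Dio2 (-1.14) and Meis2 (-0.79). Among genes higher on average, the larger effect was in ventricles for Myom2 (1.58) and Nppa (1.26), and in atria for Cspg4 (-1.36), Gad1 (-1.19), Acta2 (-0.74), Clu (-0.69) and Arhgap36 (-0.53). With the embryo as replicate block the call of Arhgap36 was lost (adjusted p = 0.77). Ventricular means of dKO against control were low for Dpp6 (0.221 against 0.613 CPM), Ppp1r17 (0.581 against 1.46 CPM) and Mccc1os (0.582 against 1.43 CPM). Adding 1 CPM before the log shrinks such falls, so the size of their difference between chambers depends on the scale. The value of Gad1 is limited likewise, since control ventricles lay under the count of 3 reads. Genes not called on average had a positive difference for Tmem163 (1.54), Csrnp3 (1.399), Klf14 (1.32), Bcat1 (1.23) and Slc9a2 (1.195), and a negative one for Adra1d (-2.12), Col2a1 (-1.92), Ankrd63 (-1.42), Plppr1 (-1.38) and Abca4 (-1.32).

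In 9 of 264 groups of 4 embryo means, 1 embryo lay further from the rest than Dixon's 95% criterion allows, where chance alone gives about 1 in 20. Of these, 7 are given here. For 5 genes this was dKO embryo 4, namely Hspb1 (262 CPM, others 232 to 236), Cdhr1 (7.67 CPM, others 11.8 to 12.9), Plec (160.04 CPM, others 176 to 178), Bmp10 (57.7 CPM, others 85.01 to 90.8) and Hmga1 (44.2 CPM, others 18.5 to 19.4). For Sema6d it was dKO embryo 1, with 80.1 CPM against 68.1 to 68.8 CPM in the other 3. For Dok5 it was control embryo 4, with 5.12 CPM against 4.23 to 4.33 CPM in the other 3. Hmga1, Bmp10, Plec and Cdhr1 were called in the average in each fit that left out 1 embryo. Hmga1 and Bmp10 lost their calls under the robust prior (adjusted p = 0.081 and 0.051), and Plec in edgeR (adjusted p = 0.056). The fall of Hspb1 was called in 3 of the 8 fits, the one without dKO embryo 4 among them (adjusted p up to 0.089).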

How the results depend on the processing

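Beside Meis1 and Meis2, 108 named genes were called. None of them changed direction, and 71 kept their call, 62 under all 22 alternatives and 9 under the 21 run for them (their mean was under the filter of 5 CPM). Of the 22 named genes not called, 11 changed sign under at least 1 alternative. The averaged comparison called 996 genes and between 894 and 1457 under other pseudocounts, filters, scalings, thinned reads, a robust prior, edgeR, title-number set as covariate and averaging before the log (1060). DESeq2 called 1713 (982 of the 996 among them), the embryos of set B gave 559 (483 among them), and leaving out 1 embryo at a time 712 to 977. The counts of edgeR and DESeq2 rest on libraries as replicates, without the pairing of chambers within embryos. With the embryo as replicate block the average gave 1271 calls and the difference between chambers 368 instead of 198. The block changed no call among the named averages other than those of Plec (adjusted p = 0.068) and Notch2 (adjusted p = 0.051), both lost. The difference gave 415 calls in DESeq2, 262 in edgeR, 333 with a pseudocount of 5, 114 with thinned reads and 76 to 199 with 1 embryo left out. Within set B limma called 0 genes for the difference, with 1490 at an unadjusted p under 0.05; other tools were not run there. Ventricles alone gave 79 calls within set B instead of 279, and atria gave 1776 in DESeq2 instead of 1042. With the set as a covariate the differences of Meis1 and Meis2 were -0.33 and -0.34, and the permutation within sets gave p = 0.0556 for both, the smallest that 18 arrangements allow. Averaging before the log ended the calls of Myl3 (-0.0495), Cspg4 (0.13), Tbx5 (0.16), Acads, Aldh1a2, Cd34 and Hspb1. The robust prior ended those of Hmga1 (adjusted p = 0.081) and Bmp10 (adjusted p = 0.051). Uts2b was lost in edgeR and DESeq2. Depth limits genes near 3 reads, most of all in the shallower dKO ventricles.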

Other observations

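Rplp0, a ribosomal stalk protein gene with many processed copies, differed more between the title-number sets than between genotypes. Its embryo levels were 1035 CPM in the dKO embryo of set A. In set B they were 597 and 617 CPM in dKO embryos and 651 and 621 CPM in control embryos. In set C they were 928 CPM in the dKO embryo and 1089 and 944 CPM in control embryos. The averaged difference between genotypes was -0.057 on the log2 scale (adjusted p = 0.92).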
